A study of Mus musculus with 20 samples.

Results

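Whole-kidney RNA was compared between 2 ways of injuring the mouse kidney, one by a pulse of telomerase and one by adriamycin (ADR, doxorubicin), in 14 of the 20 libraries of the series. The members are all libraries of 4 groups, chosen by their labels, and every gene that passed a filter on low counts, which left 18847 of 55471 gene identifiers. All mice were female, 2 months old and gave 1 library each. In the first experiment, actin-rtTA+ controls (n = 4) and actin-rtTA+;tetOp-TERTci+ mice (i-TERTci, n = 3), both of a mixed background, drank doxycycline at 2 mg/ml for 15 days and were killed after 8 days without it. The reverse transactivator is driven in all tissues by the CAG promoter, so TERTci, a catalytically inactive telomerase, was switched on in the whole animal, and controls carried the transactivator and received doxycycline too. In the second experiment, TERT WT/WT mice of a Balb/c background received 1 intravenous injection of saline (n = 4) or of ADR at 12 mg/kg (n = 3) and were killed on day 18. Strain, agent, time and experiment all differ between the arms and cannot be told apart. The quantity compared is the i-TERTci effect (i-TERTci minus actin-rtTA+) minus the ADR effect (ADR minus saline), each as a log2 fold change.

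TERT is the catalytic subunit of telomerase, and its overexpression drives podocytes, the filtering cells of the glomerulus, into the cell cycle. ADR is a DNA intercalating drug that damages podocytes in susceptible mouse strains, after which protein leaks into the urine. Injured tubules then express adhesion molecules, keratins and cytokines, macrophages enter the kidney and fibroblasts lay down matrix.

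The 14 libraries held 39323498 to 48399322 counts and 23230 to 25262 genes with a count. Levels below are counts per 1000000 counts of the library (CPM) after TMM scaling, listed in the order of the replicate numbers, and ± gives the SD over mice. Markers of podocytes, proximal tubule, thick limb, distal tubule and collecting duct were present in every library, with Umod, the uromodulin gene of the thick limb, at 1740 to 5739 CPM without TMM factors. Tert had 164, 87, 132 and 161 counts in controls and 1070, 1086 and 230 in i-TERTci mice, which does not separate the transgene from the mouse gene, on chromosome 13 of mm10 from 73626911 to 73649843. After saline it had 174, 187, 145 and 122 counts and after ADR 164, 195 and 379. Only the i-TERTci effect passed the test for Tert (log2 fold change 2.46, adjusted p = 0.0142), and the third i-TERTci mouse was near the controls. That estimate was 0.77 with voom (adjusted p = 0.0947) and 1.81 without i-TERTci mouse 2, and ran from 0.77 to 2.91 over the alternatives. It missed the threshold when the experiment was fitted alone with edgeR (0.0758), on all 20 libraries (0.072), with the replicate block (0.168) and without control 1, control 3 or i-TERTci mouse 1 (0.0517 to 0.0794).

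The mice of a treated group were not alike. On the first principal component, with 43.8% of the variance over the 1000 most variable genes, the 8 control libraries lay between -32.55 and -20.44. The i-TERTci mice lay at 65.8, -9.045 and 39.7 and the ADR mice at 8.429, 56.93 and 53.23, all above every control. The second i-TERTci mouse and the first ADR mouse were thus the nearest to controls. The second component (36.7%) separated the experiments.

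**Figure D1:**
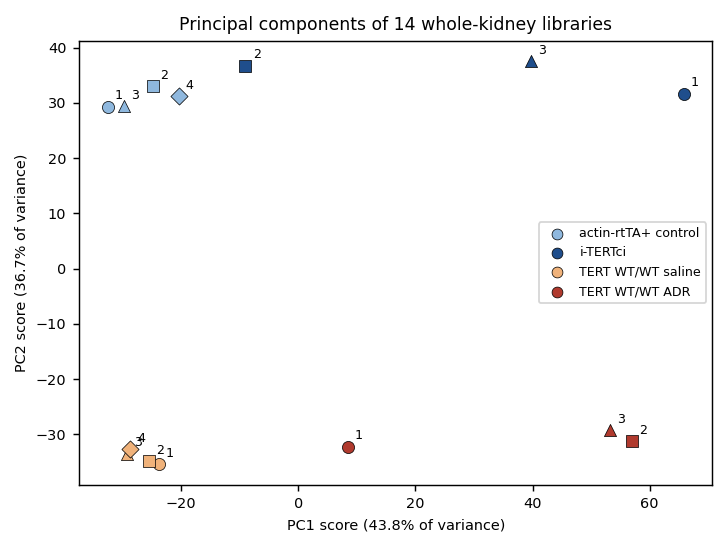
Scores of the 14 libraries on the first and second principal components of log2 CPM, with 1 point per mouse, coloured by group and numbered by replicate. Treated mice of both experiments lie to the right of their controls on PC1, from -9.045 to 65.8, and PC2 separates the experiments.

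More genes rose than fell in both experiments. In i-TERTci kidneys 1436 genes rose (7.62% of those tested) and 177 fell (0.939%). After ADR 2143 rose (11.4%) and 1521 fell (8.07%). Both effects had 950 rises (5.04% of genes tested) and 90 falls (0.478%) in common, while 3 genes went opposite ways. The shared genes were 64.5% of the i-TERTci calls and 28.4% of the ADR calls. Among rises the shares were 66.2% and 44.3%, and the shared falls were 50.8% of the i-TERTci falls and 5.92% of the ADR falls. The 90 shared falls became 54 with library totals, 334 with DESeq2 and 1927 with voom. Without 1 library they ran from 0 (control 1) to 801 (i-TERTci mouse 2), so the share of ADR falls in common depended on the fit. The i-TERTci count changed widely with the fit. Fitted on its own, the i-TERTci experiment gave 1 call with edgeR (3972 genes at an unadjusted p under 0.05) and 1934 with DESeq2, and the joint fit gave 1, 5 and 5 calls without control 1, control 3 or i-TERTci mouse 1, 818, 691 and 271 without control 2, control 4 or i-TERTci mouse 3, and 5013 without i-TERTci mouse 2. Without control 1, control 3 or i-TERTci mouse 1, 4636, 4169 and 2683 genes still had an unadjusted p under 0.05, against 4992 in the main fit. Few or no calls in such a fit, also in the lists below, thus mean that the adjusted threshold was missed. They do not mean that the estimates vanished. For most counts over the lists below, the values without a library whose removal moved them by over 1.5 times are given. Without ADR mouse 1, the i-TERTci calls numbered 2753. The ADR count fell to 205 without ADR mouse 2, 644 without ADR mouse 3, and 1857, 1280 and 1232 without saline mice 2, 3 and 4, and rose to 6184 without ADR mouse 1. With library totals in place of TMM factors, 77.7% of the ADR calls were rises, against 58.5% with them.

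Genes called in 1 effect mostly moved the same way in the other. Of 2621 genes called after ADR alone, 2427 (92.6%) had an i-TERTci estimate of the same sign, and of 570 called in i-TERTci kidneys alone, 516 (90.5%) had an ADR estimate of the same sign. Over all genes tested the share was 74.5%. Across genes, which are not independent replicates, the log2 fold changes of the effects had a Pearson r of 0.754 and a Spearman rho of 0.672. The shared rises had median log2 fold changes of 1.98 in i-TERTci kidneys and 1.95 after ADR, and the shared falls -0.65 and -0.66. Of the shared rises, 491 had the larger estimate in i-TERTci kidneys and 459 after ADR.

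**Figure D2:**
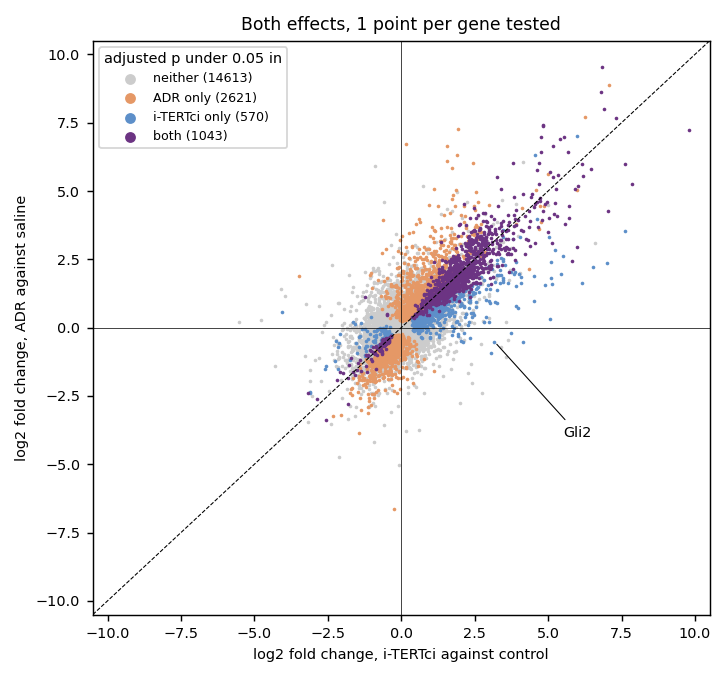
Log2 fold change of each gene tested in i-TERTci against control kidneys (horizontal) and in ADR against saline kidneys (vertical), coloured by which effect passed an adjusted p of 0.05, with a dashed line where the effects are equal. The 1040 genes called in both with the same sign lie on the same side of zero on both axes, the 3 called in opposite directions do not, and Gli2 lies far below the line.

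A test of the difference itself passed for 1 gene, Gli2, or 0.00531% of those tested. At an unadjusted p under 0.05 the difference was positive, meaning a larger or more positive i-TERTci effect, for 713 genes (3.78%) and negative for 534 (2.83%). DESeq2 called 63 differences and limma voom with sample quality weights 1758. A difference that missed the threshold does not show equal effects. The 95% interval of the difference lay within -1 to 1, that is within a 2-fold change either way, for 9696 genes (51.4%), but for only 189 of the 1040 shared genes (18.2%).

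Genes of cell division rose together in both experiments. Of 65 cell cycle genes tested, 50 rose in i-TERTci kidneys and 50 after ADR, 47 of them in both, and none fell. The median log2 fold changes were 2.03 and 2.16, against 0.02 and 0.00 over all genes. Ccnb2, a mitotic cyclin, was at 0.637, 0.879, 1.22 and 1.04 CPM in controls and 12.1, 1.37 and 9.92 in i-TERTci mice, and at 0.568, 0.555, 0.668 and 0.866 after saline and 4.52, 10.8 and 6.76 after ADR. All 6 treated mice were above all controls of their experiment, with the second i-TERTci mouse closest to them. Its log2 fold changes were 3.04 (SE 0.54, adjusted p = 0.0142) and 3.47 (SE 0.55, adjusted p = 0.00709). Ccna2, the cyclin of S phase and G2, rose by 2.75 and 3.14, Prc1, which bundles microtubules in cytokinesis, by 2.89 and 3.91, and Uhrf1, which keeps DNA methylation through replication, by 2.51 and 2.88 on the log2 scale. Fitted alone with edgeR, 0 of the list passed in the i-TERTci experiment, and 49 passed with DESeq2. With 1 library left out, the i-TERTci rises numbered 0 without control 1, control 3 or i-TERTci mouse 1, 12 without i-TERTci mouse 3 and 33 without control 2, and the ADR rises 20 without ADR mouse 2.

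The smallest p values for a difference within this list belonged to Tyms, which makes thymidylate for DNA synthesis, Mybl2, a transcription factor of the cell cycle, and Ube2c, which tags mitotic proteins for destruction. None passed. Ube2c had effects of 1.37 and 3.13 (difference -1.76, 95% interval -3 to -0.52, adjusted p = 0.636). Its control level was 7.32 ± 2.89 CPM (SD, n = 4) in the i-TERTci experiment and 1.55 ± 0.464 (SD, n = 4) after saline, while the treated levels were 18.9 ± 8.17 (SD, n = 3) and 13.5 ± 6.18 (SD, n = 3). The treated mice of the experiments thus overlapped in level, while every saline mouse was below every actin-rtTA+ control.

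The promoters of 3 of the cell cycle genes named above are shown because many cell cycle promoters are bound at CCAAT boxes by NF-Y. Each line gives the 120 bases before the first transcription start listed by RefSeq on GRCm38.p6, 5′ to 3′ on the gene's strand, with CCAAT or its reverse complement ATTGG in capitals.
Ccnb2, chr9:70421555-70421674, minus strand: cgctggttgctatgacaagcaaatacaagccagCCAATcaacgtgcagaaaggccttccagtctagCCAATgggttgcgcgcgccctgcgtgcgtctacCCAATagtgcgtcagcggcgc
Prc1, chr7:80294331-80294450, plus strand: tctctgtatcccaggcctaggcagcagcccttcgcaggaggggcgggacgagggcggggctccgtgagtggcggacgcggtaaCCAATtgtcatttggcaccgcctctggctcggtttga
Uhrf1, chr17:56303217-56303336, plus strand: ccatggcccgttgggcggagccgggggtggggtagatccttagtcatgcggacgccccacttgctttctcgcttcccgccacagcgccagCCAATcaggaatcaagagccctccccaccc
Ccnb2 holds 3 copies in this window, and Prc1 and Uhrf1 hold 1 each. CCAAT on either strand was sought in the 250 bases before each listed start. At 1 start or more it was found for 30 of 40 cell cycle genes with a listed promoter that rose in both effects (75.0%). It was present for 37.3% of 719 shared rises, for 39.5% of the 12800 tested genes and for 37.5% of all 27025 genes with a promoter. TTTGAA on either strand, the core of the CHR element, was present for 10 of the 40 (25.0%) and for 13.6% of tested genes. These are matches of letters and not bound sites. Cell cycle genes that did not rise were not compared, so the share cannot be tied to the rise, and a cause was not tested.

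Macrophage and monocyte genes rose in both experiments. Of 27 tested, 25 rose in i-TERTci kidneys and 23 after ADR, 23 of them in both, with medians of 2.33 and 2.28. Cd14, a receptor for bacterial lipopolysaccharide, was at 9.76, 9.43, 10.9 and 14 CPM in controls and 159, 13.4 and 88.7 in i-TERTci mice, and at 10.7, 11.1, 10.3 and 8.95 after saline and 39.6, 177 and 128 after ADR. The first i-TERTci mouse and the second ADR mouse were the highest of their groups, and i-TERTci mouse 2 was within the control range. Ccr2, the chemokine receptor of inflammatory monocytes, had effects of 3.36 and 3.20, Cx3cr1, the fractalkine receptor, 2.26 and 2.39, and the Fc receptor gene Fcgr3 2.78 and 2.59. All of these passed in both. Csf1r, the receptor for the macrophage growth factor CSF1, did not pass in either (effects 0.33 and -0.08). Lyz2, which encodes lysozyme, had effects of 3.86 and 2.48. The list summed to 221 to 306 CPM without TMM factors in controls and 314 to 3026 in i-TERTci mice, and to 242 to 309 after saline and 517 to 1474 after ADR. In whole kidney, more cells of a type and more RNA per cell cannot be told apart. The number of i-TERTci rises was 0 without control 1, control 3 or i-TERTci mouse 1 and 12 without i-TERTci mouse 3, and of ADR rises 2 without ADR mouse 2 and 12 without ADR mouse 3.

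Genes that present antigen and the complement genes moved with them. Of 9 MHC class II genes, 8 rose in i-TERTci kidneys and 7 after ADR (medians 2.42 and 1.98). These counts became 0 without control 1, control 3 or i-TERTci mouse 1 and 4 without i-TERTci mouse 3 in i-TERTci kidneys, and 0 without ADR mouse 2, 1 without saline mouse 4 and 2 without ADR mouse 3 or saline mouse 3 after ADR. Cd74, the invariant chain, had effects of 2.64 and 2.00, and H2-Aa, a class II chain, of 2.44 and 2.01. Of 20 complement genes, 10 rose in i-TERTci kidneys, and after ADR 15 rose and 1 fell, with 10 rises shared. Rises in i-TERTci kidneys became 0 without control 1, control 3 or i-TERTci mouse 1 and 4 without i-TERTci mouse 3, and those after ADR 4 without ADR mouse 2 and 8 without ADR mouse 3. C1qb, a chain of the C1q recognition molecule, had effects of 2.30 and 2.41, and C3ar1, a receptor for a fragment of C3, of 2.44 and 2.45. C4b rose by 2.35 and 2.26 from control levels of 3.68 ± 0.578 and 14.4 ± 0.694 CPM (SD, n = 4 each). C2 and Masp1, proteases of the classical and lectin pathways, rose after ADR alone (0.79 and 1.78) against 0.06 and 0.29 in i-TERTci kidneys. Their differences did not pass (adjusted p = 0.542 and 0.606).

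Cytokine and NF-kB target genes rose in both experiments too. Of 51 tested, 36 rose in i-TERTci kidneys, and after ADR 34 rose and 1 fell, with 30 rises shared and medians of 2.06 and 1.86. Left-out libraries changed the i-TERTci count to 0 without control 1, control 3 or i-TERTci mouse 1, 16 without i-TERTci mouse 3 and 21 without control 2 or control 4, and the ADR count to 6 without ADR mouse 2 and 18 without ADR mouse 3. Lif, a cytokine of the IL-6 family, rose by 4.97 and 4.58, and Osmr, a receptor for its relative oncostatin M, by 1.71 and 1.95. Socs3, which curbs signalling from these receptors, rose by 3.19 and 3.46, and the NF-kB subunit gene Relb by 2.32 and 2.23. Chemokines with the smallest p for a difference were Cxcl9, Cxcl13 and Ccl8, all with the larger i-TERTci estimate. Cxcl13, which attracts B cells, was at 0.0659, 0.0517, 0.258 and 0.127 CPM in controls and 1.85, 4.06 and 0.171 in i-TERTci mice, against 0.432, 0.597, 0.557 and 0.42 after saline and 1.08, 0.34 and 1.08 after ADR. Only its i-TERTci effect passed, it was highest in i-TERTci mouse 2, and i-TERTci mouse 3 overlapped the controls. None of the 3 differences passed (adjusted p = 0.549, 0.661 and 0.678).

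Of 20 immediate early genes, transcription factors that respond within minutes to growth and stress signals, 13 rose in i-TERTci kidneys and 15 after ADR, 12 of them in both. In i-TERTci kidneys the count was 0 without control 1 or i-TERTci mouse 1, 1 without control 3, 4 without i-TERTci mouse 3 and 7 without control 2 or control 4, and after ADR 1 without ADR mouse 2, 3 without ADR mouse 3 and 9 without saline mouse 4. Egr1 rose by 2.98 and 2.73, Fos by 2.84 and 3.07, and Junb by 1.83 and 2.06. Nr4a3, an orphan nuclear receptor, had 3.02, 1.61 and 1.35 CPM in i-TERTci mice and 0.176, 0.336, 0.375 and 0.191 in controls, and 0.406, 0.611 and 1.02 after ADR and 0.477, 0.491, 0.623 and 0.472 after saline. The i-TERTci mice did not overlap their controls and the ADR mice overlapped theirs. The difference was 2.48 (95% interval 1.29 to 3.68, unadjusted p = 5.7e-04, adjusted p = 0.388). Of 36 targets of p53, the transcription factor that answers DNA damage, 8 rose in i-TERTci kidneys, all of them also after ADR, where 14 rose and 1 fell. The i-TERTci rises numbered 13 with DESeq2. They became 0 without control 1, control 3 or i-TERTci mouse 1, 2 without control 2 or i-TERTci mouse 3, 3 without control 4, 4 without saline mouse 1, saline mouse 2, saline mouse 3 or saline mouse 4, 5 without ADR mouse 2, 13 without ADR mouse 1 and 14 without i-TERTci mouse 2, and the ADR rises 6 without ADR mouse 2 and 7 without ADR mouse 3. Cdkn1a, the cell cycle inhibitor p21, rose by 2.45 and 3.20, and Eda2r, a receptor of the TNF receptor family, by 2.31 and 3.11. Gtse1, a p53 regulator that is itself a gene of G2 and S phase, rose by 2.93 and 2.86. Ephx1, an epoxide hydrolase, rose after ADR (0.57) and not in i-TERTci kidneys (0.01), with a difference of -0.55 (adjusted p = 0.481).

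Tubule injury genes had the larger median after ADR. Of 24 tested, 16 rose in i-TERTci kidneys and 22 after ADR, with all 16 i-TERTci rises shared and medians of 1.67 and 2.42. Rises numbered 0 without control 1, control 3 or i-TERTci mouse 1, 5 without i-TERTci mouse 3 and 8 without control 2 or control 4 in i-TERTci kidneys, and 10 without ADR mouse 2 after ADR. Vcam1, an adhesion molecule of injured tubules, was at 10.9, 15, 14 and 19.2 CPM in controls and 327, 25.3 and 197 in i-TERTci mice, and at 12.4, 13.2, 13.9 and 13.6 after saline and 45.2, 364 and 281 after ADR. No treated mouse overlapped its controls. The fibrinogen genes Fga and Fgg rose by 1.69 and 2.70 in i-TERTci kidneys and by 2.5 and 2.89 after ADR. Anxa1, which encodes annexin A1, rose by 1.18 and 1.38, with a narrow interval for the difference (-0.90 to 0.49). Havcr1, the kidney injury molecule KIM-1, was at 191, 137, 120 and 101 CPM in controls and 162, 214 and 241 in i-TERTci mice, which overlapped, and at 131, 124, 200 and 241 after saline and 257, 693 and 616 after ADR, which did not. It passed after ADR (1.58) and not in i-TERTci kidneys (0.58), and its difference did not pass (-1, adjusted p = 0.758). Krt18, a keratin of simple epithelia, passed after ADR (1.54) against 0.59 in i-TERTci kidneys.

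The largest shared rises, by the smaller of the 2 effects, were in Sprr2f, Il1f6, Xirp2, Mmp7, Krt12, Timp1, Fosl1, Krt20, Ccl20 and Arhgap36. Several of these had 0 to a few counts in each control. Arhgap36 had 245, 0 and 89 counts in i-TERTci mice, so it was not raised in i-TERTci mouse 2. Sprr2f, a protein of the cornified envelope, had no count in the actin-rtTA+ controls. Its mean i-TERTci level was at least 44.3-fold higher than a floor of 3 counts per library. That of Mmp7, the metalloproteinase matrilysin, was at least 8.76-fold higher. Xirp2, an actin-binding protein of striated muscle, had no count after saline and was at least 17.9-fold higher after ADR. Timp1, an inhibitor of metalloproteinases, was at 0.11, 0.388, 0.188 and 1.42 CPM in controls and 61.4, 1.03 and 19.8 in i-TERTci mice, and at 0.296, 0.384, 0.223 and 0.184 after saline and 13.7, 33.1 and 24.6 after ADR. The second i-TERTci mouse lay below the highest control. Krt20, a keratin of superficial epithelium, rose by 5.39 and 6.92, and Fosl1, a subunit of AP-1, by 5.55 and 6.99. Il1f6, a cytokine of the IL-1 family, was at 7.83, 0.132 and 4.76 CPM in i-TERTci mice and 0.932, 9.71 and 8.24 after ADR, and at most 0.085 CPM in any control.

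The largest shared falls were in Apol10b, Ly6f, Perm1, Akr1c13, Dlg2, Slc6a12, Acox2, Smco3, Eddm3b and Agmat. Acox2, a peroxisomal oxidase of branched fatty acids and bile acid precursors, was at 185, 207, 230 and 182 CPM in controls and 31.2, 109 and 76.6 in i-TERTci mice, and at 175, 139, 136 and 171 after saline and 116, 36.6 and 37.6 after ADR. No treated mouse overlapped its controls. It fell by 1.48 and 1.29 on the log2 scale. Akr1c13, an aldo-keto reductase, had effects of -2.10 and -1.61, and Perm1, a regulator of mitochondrial genes, of -1.64 and -1.64. Slc6a12, the betaine transporter, had effects of -1.78 and -1.36. Agmat, agmatinase, had effects of -1.12 and -1.05, and its difference was bounded by -0.92 to 0.79.

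**Figure D3:**
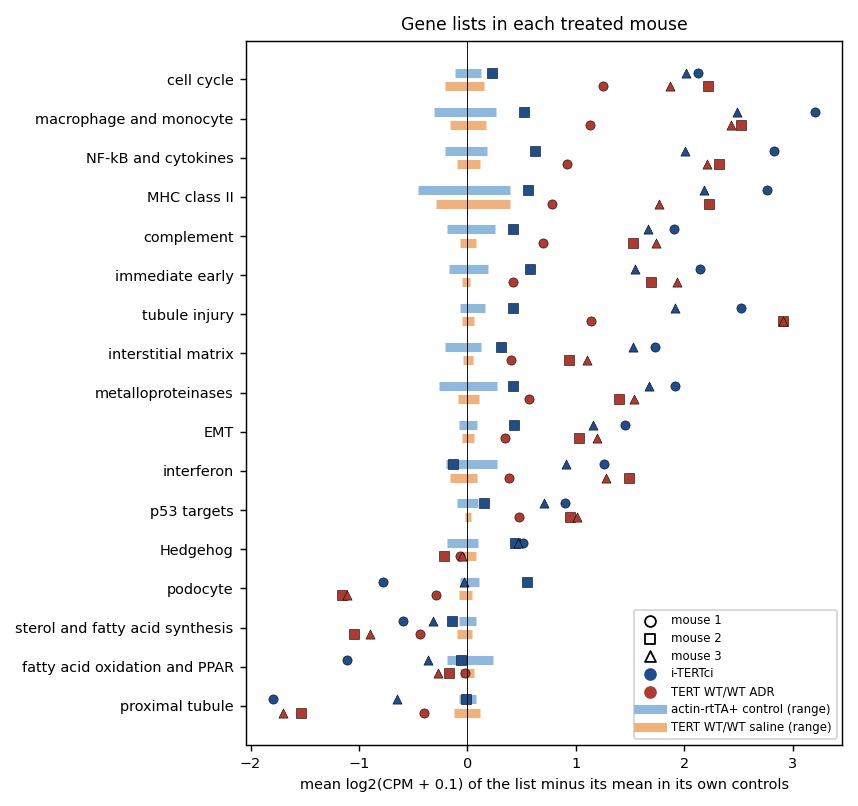
Mean log2(CPM + 0.1) over the tested members of 17 gene lists in each treated mouse, minus the mean of its own controls, with bars for the range of the controls and symbols for the replicate number. In the inflammatory, cell cycle and injury lists i-TERTci mouse 2 and ADR mouse 1 lie nearest to the controls, while the 3 i-TERTci mice lie together at 0.44 to 0.51 in the Hedgehog list. That list includes Gli2, which was raised in all 3 i-TERTci mice, and the score without Gli2 was not computed.

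Gli2, which encodes a transcription factor at the end of the Hedgehog pathway, was the gene whose difference passed. It lies on chromosome 1 of mm10 from 118834132 to 119053619, on the minus strand. It had 17, 26, 41 and 23 counts in the actin-rtTA+ controls and 395, 204 and 249 in i-TERTci mice, and 33, 39, 32 and 24 after saline and 27, 26 and 19 after ADR. In CPM the i-TERTci mice were at 6.7, 5.37 and 4.74 against 0.374, 0.672, 0.962 and 0.489 in their controls, with no overlap, and the ADR mice at 0.645, 0.589 and 0.322 overlapped the saline mice at 0.75, 0.832, 0.713 and 0.63. The i-TERTci effect was 3.17 (SE 0.31, adjusted p = 0.00191), the ADR effect -0.51 (SE 0.33, adjusted p = 0.277) and the difference 3.68 (SE 0.46, 95% interval 2.70 to 4.66, adjusted p = 0.028). Gli2 was raised in i-TERTci mouse 2 as in the other i-TERTci mice, whereas the macrophage and cell cycle lists were closest to controls in that mouse. Over 23 alternatives the difference stayed between 3.41 and 3.96, but its adjusted p ran from 8.5e-11 to 1. It missed the threshold on all 20 libraries (adjusted p = 1), with the replicate block (adjusted p = 0.903), and without control 1, 2 or 4, i-TERTci mouse 1, ADR mouse 2 or 3, or saline mouse 1, 2 or 3 (0.0577 to 0.13).

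Of the 12 other genes tested within 1 Mb of Gli2, chosen after its values were seen, none passed in the i-TERTci effect or in the difference. Their i-TERTci effects ran from -0.26 to 1.08 and their differences from -2.15, in Inhbb, to 0.23. The nearest, Tfcp2l1, had an i-TERTci effect of 0.12. No other gene of the Hedgehog pathway passed in the difference. Of 16 tested, 5 rose in i-TERTci kidneys, Gli2 among them, and after ADR 3 rose and 5 fell. The medians were 0.29 and -0.19. Over all genes, 7.62% rose in i-TERTci kidneys, and 11.4% rose and 8.07% fell after ADR. With library totals 1 of the 16 fell after ADR. The falls after ADR numbered 0 without ADR mouse 2 or ADR mouse 3 and 3 without saline mouse 2 or saline mouse 4, the rises after ADR 0 without ADR mouse 2, ADR mouse 3 or saline mouse 3 and 1 without saline mouse 2 or saline mouse 4, and the rises in i-TERTci kidneys 1 without control 1, control 2, control 3, control 4, i-TERTci mouse 1 or i-TERTci mouse 3. Gli1, the target gene most used as a readout of the pathway, was at 1.23, 1.86, 2.32 and 2.04 CPM in controls and 3.83, 3.98 and 4.07 in i-TERTci mice, and at 2.52, 2.07, 1.18 and 1.6 after saline and 2.8, 4.14 and 3.88 after ADR. It rose by 1.09 and 0.97, and the interval of its difference was -0.69 to 0.94. Kif7, a kinesin of the cilium, rose by 0.86 and 0.81. Hhip, a target that binds Hedgehog ligands, fell after ADR (-1.42) against 0.57 in i-TERTci kidneys, and the ligand co-receptor genes Gas1 and Boc had differences of 0.46 and 0.50. None of these differences passed (adjusted p = 0.474 for Hhip).

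**Figure D4:**
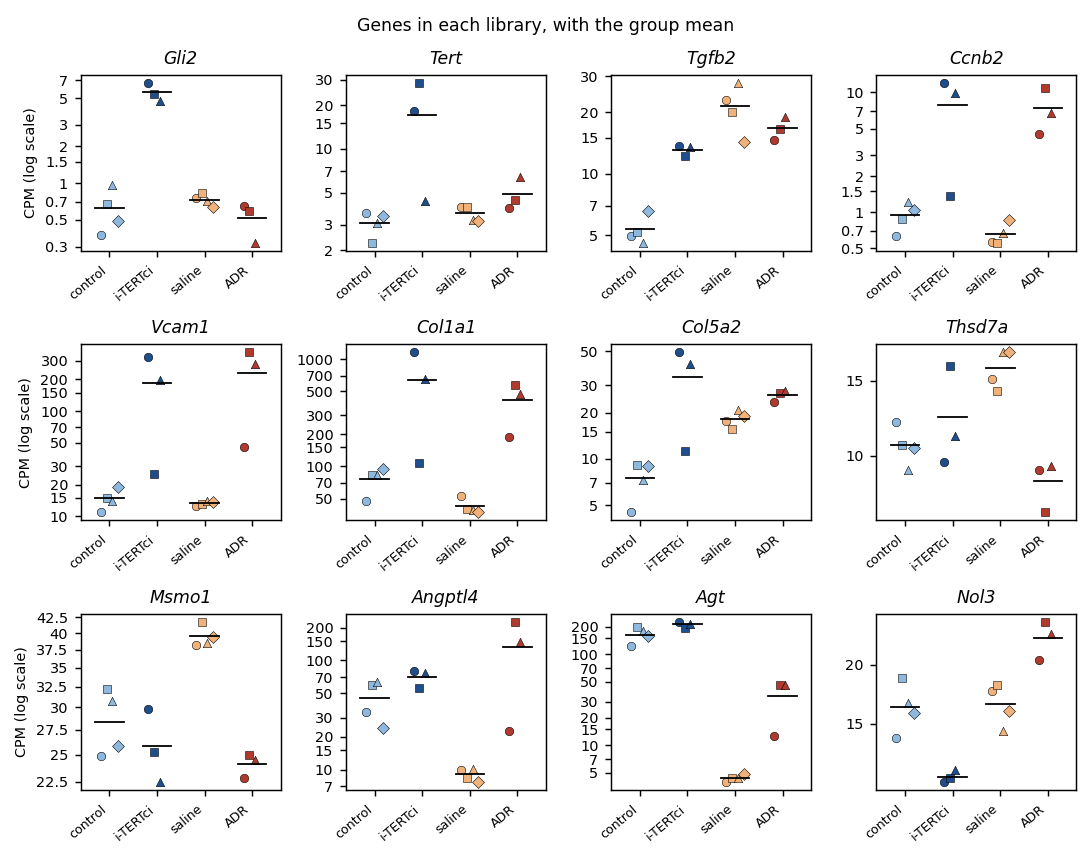
CPM of 12 genes in each of the 14 libraries on log axes, with a bar at each group's mean and symbols for the replicate number. Gli2 is raised in all 3 i-TERTci mice and in no ADR mouse, Ccnb2, Vcam1 and Col1a1 are raised in both experiments, and Agt, Angptl4 and Tgfb2 start from control levels that differ between the experiments.

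Matrix genes had the larger median in i-TERTci kidneys. Of 34 genes of the interstitial matrix, 28 rose in i-TERTci kidneys and 13 after ADR, all 13 of the latter shared, with medians of 1.41 and 0.77. The ADR count was 20 when the ADR experiment was fitted alone with edgeR and 24 with DESeq2. It was 2 without ADR mouse 2 or ADR mouse 3, 7 without saline mouse 2, saline mouse 3 or saline mouse 4, 20 without ADR mouse 1 and 21 without i-TERTci mouse 2, and the i-TERTci count 0 without control 1 or control 3, 1 without i-TERTci mouse 1, 9 without i-TERTci mouse 3 and 18 without control 4. The difference was positive at an unadjusted p under 0.05 for 4 and negative for none. Col1a1, which encodes a type I collagen chain, was at 47.5, 82.7, 82.3 and 93.9 CPM in controls and 1161, 107 and 646 in i-TERTci mice, and at 52.5, 40.4, 38.9 and 37.2 after saline and 189, 573 and 476 after ADR. No treated mouse overlapped its controls, and the log2 fold changes were 3.06 and 3.29. Col3a1 rose by 2.69 and 2.32, and Col6a2 by 1.93 and 1.54. Col5a2, a chain of type V collagen, was at 4.48, 9.12, 7.27 and 8.96 CPM in controls and 49.5, 11.2 and 41.3 in i-TERTci mice, against 17.5, 15.7, 20.9 and 19 after saline and 23.5, 26.8 and 27.8 after ADR. Saline controls were thus above the other controls, and its difference of 1.68 did not pass (adjusted p = 0.601). The matrix protein genes Fbln1 and Col6a3 rose in i-TERTci kidneys (1.49 and 0.68) against 0.31 and -0.10 after ADR.

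Of 19 metalloproteinase genes tested, 10 rose in i-TERTci kidneys, and after ADR 9 rose and 1 fell, with 7 rises shared. Those in i-TERTci kidneys became 0 without control 1, control 3 or i-TERTci mouse 1, 3 without i-TERTci mouse 3 and 6 without control 4, and those after ADR 2 without ADR mouse 2 or ADR mouse 3 and 5 without saline mouse 3 or saline mouse 4. Mmp10, a stromelysin, had no count in any of the 8 controls, and 44, 0 and 27 counts in i-TERTci mice and 21, 26 and 33 after ADR, at least 7.52-fold and 8.96-fold higher than a floor of 3 counts per library. It was thus absent from the counts of i-TERTci mouse 2 and present in all 3 ADR mice. Mmp12, the macrophage elastase, was at 93, 1.92 and 21.9 CPM in i-TERTci mice and 0.527, 1.71, 0.657 and 1.66 in controls, and at 2.72, 16.4 and 8.72 after ADR and 1.91, 1.75, 1.89 and 1.47 after saline. Its i-TERTci effect passed (5.10) and its ADR effect did not (2.40, adjusted p = 0.0659), nor did the difference (adjusted p = 0.753). Mmp2, a gelatinase of fibroblasts, rose by 1.95 and 0.97, Mmp14, which activates it, by 1.99 and 1.85, and Mmp24 by 4.24 and 3.25. Mmp9, the gelatinase of leukocytes, and Mmp23 passed in i-TERTci kidneys alone (1.89 and 0.84, against 0.25 and 0.64), and Mmp3, another stromelysin, after ADR alone (3.34 against 2.25). None of these differences passed. Over the fits run, the adjusted p of the ADR effect ran from 0.00169 to 0.241 for Mmp23 and from 4.9e-06 to 0.298 for Mmp12. That of the Mmp3 i-TERTci effect ran from 0.00182 to 0.297, so whether these effects passed depended on the fit.

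Of 38 genes of epithelial-to-mesenchymal transition (EMT), 23 rose in i-TERTci kidneys, and after ADR 17 rose and 1 fell, with 15 rises shared and medians of 0.97 and 0.62. With a library left out, i-TERTci rises were 0 without control 1, control 3 or i-TERTci mouse 1, 7 without i-TERTci mouse 3, 11 without control 4 and 15 without control 2, and ADR rises 3 without ADR mouse 2 and 6 without ADR mouse 3. Cd44, a receptor for hyaluronan, rose by 4.41 and 4.77, and Vim, the intermediate filament vimentin, by 1.80 and 1.58. Tgfb2, a TGF-β ligand, was at 13.7, 12.2 and 13.6 CPM in i-TERTci mice and 4.99, 5.19, 4.6 and 6.61 in controls, with no overlap. After ADR it was at 14.7, 16.6 and 18.9 and after saline at 23.1, 20.2, 28 and 14.4, so both saline and ADR levels were above the i-TERTci controls. The difference was 1.66 (95% interval 1.07 to 2.24, unadjusted p = 3.2e-05) and did not pass (adjusted p = 0.199), although DESeq2 gave an adjusted p of 1.4e-04, voom 0.0154, and edgeR 0.0499 and 0.0369 without i-TERTci mouse 2 and saline mouse 4, within a range of 1.4e-04 to 1 over the alternatives. Tgfb3 rose in i-TERTci kidneys (1.38) against 0.44 after ADR. Snai2, a transcription factor of EMT, fell after ADR (-0.87) against 0.35 in i-TERTci kidneys (difference adjusted p = 0.545), and Prrx1, a mesenchymal transcription factor, rose in i-TERTci kidneys (0.84) against 0.02 after ADR.

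Podocyte genes were lower after ADR in 9 of 30 cases, and none of their differences between the effects passed. Of the 30, 1 rose and 0 fell in i-TERTci kidneys, and 1 rose and 9 fell after ADR, with medians of 0.08 and -0.79. The difference was positive at an unadjusted p under 0.05 for 9 of the 30 and negative for none. In CPM without TMM factors the slit diaphragm gene Nphs1 ran from 9.53 to 72.9 over the i-TERTci mice, against 33.6 to 57.4 in their controls, and from 3.48 to 29.7 after ADR, against 27.7 to 36.8 after saline. The i-TERTci mice thus spread on both sides of their controls. Thsd7a, a podocyte membrane protein, was at 9.66, 16.2 and 11.1 CPM in i-TERTci mice and 12, 10.6, 9.26 and 10.4 in controls, which overlapped, and at 9.25, 7.36 and 9.48 after ADR and 15.1, 14.2, 17.5 and 17.5 after saline, which did not. Its difference was 1.10 (95% interval 0.58 to 1.62, adjusted p = 0.38). The transcription factor genes Foxc2 and Tcf21 had differences of 0.92 and 0.83 (adjusted p = 0.554 and 0.583). Inf2, a formin that is not confined to podocytes, was the 1 member that rose in both (0.84 and 0.58). The count of falls after ADR was 15 when the ADR experiment was fitted alone and 14 with DESeq2. It was 0 without ADR mouse 2, 1 without ADR mouse 3, 2 without saline mouse 3, 3 without saline mouse 4, 5 without saline mouse 2, 15 without i-TERTci mouse 2 and 19 without i-TERTci mouse 1 or ADR mouse 1.

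Genes of tubule metabolism had negative medians in both experiments. Of 40 proximal tubule genes, 1 rose and 1 fell in i-TERTci kidneys and 16 fell after ADR, although the medians were -0.69 and -1.01 and no member had a difference at an unadjusted p under 0.05. Slc2a2, the glucose transporter GLUT2, fell in both (-0.60 and -0.64, difference interval -0.46 to 0.55). The proximal tubule falls after ADR numbered 0 without ADR mouse 2 or ADR mouse 3, 2 without saline mouse 3, 3 without saline mouse 4, 4 without saline mouse 2, 7 without control 3, control 4 or i-TERTci mouse 3, 8 without control 2, 10 without control 1, 28 without i-TERTci mouse 1 and 34 without ADR mouse 1. Of 32 genes of sterol and fatty acid synthesis, 1 fell in i-TERTci kidneys and 19 after ADR, with medians of -0.32 and -0.72. The sterol list had ADR falls of 4 without ADR mouse 2, 6 without ADR mouse 3, 8 without saline mouse 4 and 9 without saline mouse 3. Msmo1, a sterol oxidase, was at 24.9, 32.2, 30.7 and 25.8 CPM in controls and 29.8, 25.3 and 22.5 in i-TERTci mice, which overlapped, and at 38.2, 41.8, 38.5 and 39.4 after saline and 22.8, 25 and 24.5 after ADR, which did not. It fell after ADR (-0.71) against -0.13 in i-TERTci kidneys, and its difference did not pass (adjusted p = 0.549). Srebf2, the master regulator of sterol synthesis, fell after ADR (-0.71) against -0.18. Dhcr7, the last enzyme of cholesterol synthesis, fell in both (-0.57 and -0.60, difference interval -0.41 to 0.49).

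Of 38 genes of fatty acid oxidation and PPAR, 2 fell in i-TERTci kidneys, and after ADR 3 rose and 3 fell, no larger a share than the 11.4% and 8.07% of all genes. With library totals 5 rose. The falls of the list after ADR were 0 without ADR mouse 2, ADR mouse 3, saline mouse 2, saline mouse 3 or saline mouse 4, 1 without control 3, control 4, i-TERTci mouse 3 or saline mouse 1, 9 without i-TERTci mouse 1 and 12 without ADR mouse 1. Angptl4, a secreted inhibitor of lipoprotein lipase, was at 33.4, 59, 64 and 23.9 CPM in controls and 79.3, 56 and 76.5 in i-TERTci mice, and at 9.98, 8.3, 10.1 and 7.71 after saline and 22.6, 227 and 148 after ADR. The ADR mice were above all saline mice and the i-TERTci mice overlapped their controls. Its difference was -3.23 (95% interval -4.86 to -1.60, adjusted p = 0.388). Pdk4, which slows glucose oxidation, Plin2 and Plin5, which coat lipid droplets, rose after ADR (2.88, 2.34 and 0.90) against 0.60, 0.22 and -0.09 in i-TERTci kidneys. Fabp3, a fatty acid binding protein, fell in i-TERTci kidneys (-0.81) against -0.09 after ADR. Agt, which encodes angiotensinogen, was at 123, 197, 178 and 159 CPM in controls and 228, 193 and 216 in i-TERTci mice, and at 3.96, 4.4, 4.34 and 4.78 after saline and 12.5, 45.7 and 46.4 after ADR. It rose after ADR (3.00) from a saline level far below that of the other controls, and stayed below them. Its difference was -2.63 (adjusted p = 0.199).

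Of 34 interferon-response genes, 23 rose after ADR and 2 in i-TERTci kidneys, with medians of 1.02 and 0.73 and 1 member with a difference at an unadjusted p under 0.05, Ifi44 (-0.64, adjusted p = 0.705). Interferon-response rises after ADR numbered 0 without ADR mouse 2 and 1 without ADR mouse 3. They numbered 7 without saline mouse 3 or saline mouse 4 and 12 without saline mouse 2. The mean log2(CPM + 0.1) over the list, minus the mean of its own controls, was 1.26, -0.13 and 0.91 in i-TERTci mice. After ADR it was 0.38, 1.49 and 1.28. In this score i-TERTci mice 1 and 3 were thus within the range of the ADR mice. Only i-TERTci mouse 2 was within the range of its controls (-0.20 to 0.27). The counts of 23 and 2 thus do not show a response confined to ADR. Gbp2, a guanylate-binding protein, and Tap1, a peptide transporter for MHC class I, rose in both (1.36 and 1.52, and 1.25 and 1.39). Among 27 genes of lymphocytes and plasma cells, 10 rose in i-TERTci kidneys and 7 after ADR, 5 of them in both, and their summed level was 545 to 1548 CPM in i-TERTci mice and 140 to 259 in controls, and 140 to 362 after ADR and 32.5 to 63.7 after saline. The i-TERTci rises were 0 without control 1 or control 3, 1 without i-TERTci mouse 1, 3 without i-TERTci mouse 3, 5 without control 4 and 18 without i-TERTci mouse 2, and the ADR rises 3 without ADR mouse 2 or ADR mouse 3 and 4 without saline mouse 3 or saline mouse 4. Igkc, the kappa light chain, rose by 2.37 and 3.18, and Jchain, which joins immunoglobulin chains, by 2.21 and 2.98. Ighm, the heavy chain of IgM, was at 8.81, 12, 8.84 and 10.3 CPM in controls and 40.8, 193 and 37.6 in i-TERTci mice, and at 9.66, 9.05, 7.88 and 9.29 after saline and 11.5, 22.7 and 16.6 after ADR. It was highest in i-TERTci mouse 2, the mouse nearest to controls in the macrophage and cell cycle genes. Its difference was 2.26 (adjusted p = 0.549). Igha, the heavy chain of IgA, had control levels of 91.5 ± 29.2 CPM in the i-TERTci experiment and 7.36 ± 4.72 after saline (SD, n = 4 each), and effects of 2.00 and 3.78.

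Nol3, Fbp2 and Arhgef33 were called in opposite directions, while with library totals none of the 3 passed in i-TERTci kidneys, and DESeq2 called 10 genes in this way. Nol3, an inhibitor of apoptosis, was at 14, 18.8, 16.6 and 15.8 CPM in controls and 11.3, 11.5 and 12 in i-TERTci mice, and at 17.6, 18.1, 14.5 and 16 after saline and 20.5, 24.7 and 23.2 after ADR. All i-TERTci mice were below and all ADR mice above their controls. It had effects of -0.48 and 0.46 and a difference of -0.95 (95% interval -1.31 to -0.59, unadjusted p = 6.8e-05, adjusted p = 0.199). Fbp2, a fructose bisphosphatase, had effects of -0.50 and 0.49, and Arhgef33, a guanine nucleotide exchange factor, -1.24 and 1.12. Their differences did not pass (adjusted p = 0.199 and 0.263).

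**Figure D5:**
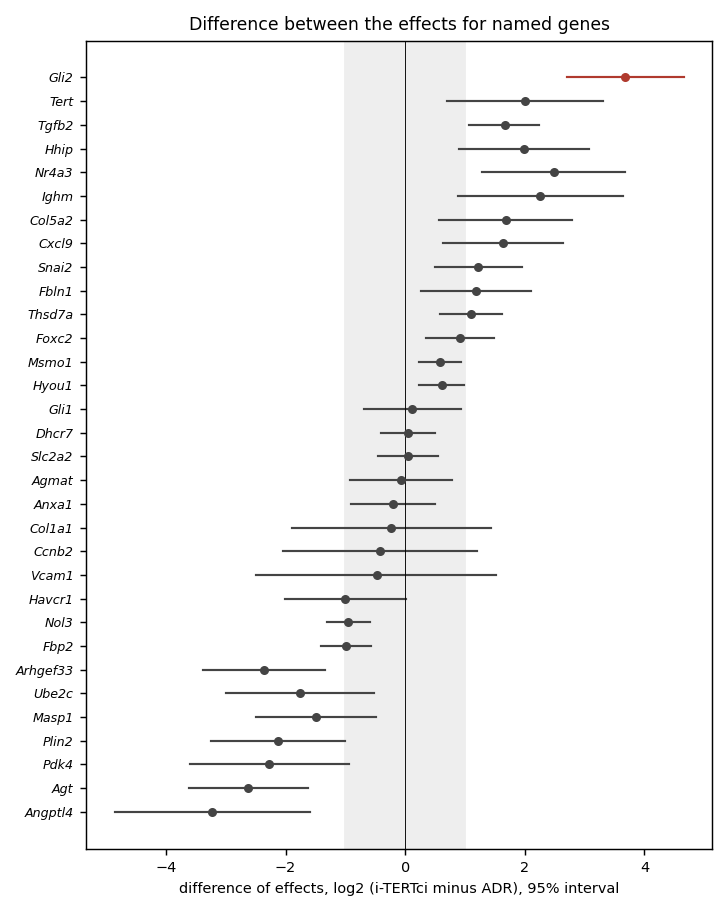
Difference of the effects (i-TERTci minus ADR, log2) with its 95% interval for 32 of the genes named in the text, with the range from -1 to 1 shaded. Gli2, in red, is the gene that passed the adjusted test, at 3.68, and Dhcr7, Slc2a2, Agmat, Anxa1 and Gli1 have intervals within the shaded range.

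Markers of blood cells and of tissue outside the kidney were also summed, without TMM factors. Red cell genes, 6 of 7 of which rose after ADR and 0 in i-TERTci kidneys, summed to 663 to 1204 CPM in controls and 965 to 2661 in i-TERTci mice, and to 511 to 924 after saline and 1535 to 3812 after ADR. Their rises after ADR numbered 1 without ADR mouse 2 and 2 without ADR mouse 3. Adipocyte genes summed to 0.983 to 7.83 CPM in controls and 11.3 to 14 in i-TERTci mice, without overlap, and to 0.61 to 5.12 after saline and 1.17 to 2.88 after ADR. Hepatocyte genes summed to 96.9 to 218 CPM in controls and 94.5 to 236 in i-TERTci mice, and 71.1 to 95 after saline and 71.1 to 122 after ADR, and adrenal genes to at most 3.23 CPM in any library, with Cyp11b1 at 0 in all 14. Skeletal muscle genes, whose sum is mostly Pvalb, a gene that the distal convoluted tubule also expresses, and whose defining markers Acta1 and Ckm reached at most 0.91 and 0.106 CPM, summed to 77.4 to 107 CPM in controls and 8.23 to 53.9 in i-TERTci mice, and 69.1 to 79.1 after saline and 18.7 to 73.0 after ADR. Neutrophil genes summed to at most 4.61 CPM in controls and 18.6 in treated mice. The part of these markers in the results above was not tested.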

How the data were processed

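Whole-kidney RNA-seq libraries of single mice were analysed, and groups were taken from the sample labels. The authors deposited raw counts of reads per gene, and the values used here are those counts. The submitters' notes name FastQC, Trimmomatic, STAR, DESeq2 and mm10, while the counting tool, its annotation and strand setting are not given in the sources used here, so overlapping and antisense genes cannot be told apart. Gene names and mm10 positions came from GENCODE M21 (GRCm38), which matched 55230 of 55471 identifiers without version numbers. Promoters are from RefSeq.

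The 14 libraries were fitted together with edgeR 4.0.16 (R 4.3.3) by TMM scaling, filterByExpr, a robust quasi-likelihood F test and Benjamini-Hochberg adjustment over 18847 genes, with a call at an adjusted p below 0.05. Separate litters are not stated, so p-values measure the spread between these mice. The contrasts were i-TERTci minus control, ADR minus saline, and their difference, all by 2-sided tests. A shared gene passed in both effects with 1 sign. The step was tested on simulated data.

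The comparison, the 42 gene lists and the named genes were chosen with earlier results of these data known, so list counts are descriptions. Named genes were Tert, 7 metalloproteinases named by the study, up to 4 per list by the smallest p of the difference and up to 4 by the larger p of the effects among shared genes, the 10 largest shared rises and shared falls, and genes called in opposite directions. Up to 10 of the largest differences each way were also taken, but only among genes called in the difference, which left Gli2 alone. For the largest differences, rises and falls, a gene had to average 1 CPM or more in some group. Some genes that the rule names are not reported here.

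Alternatives were median-ratio factors, library totals, other filters, DESeq2 1.42.0, limma 3.58.1 voom with sample weights, each experiment alone, all 20 libraries, a replicate block and each library left out. A fit without the second ADR-treated knockout library and DESeq2 on each experiment alone were added after seeing the data. Deviations from group means correlated at -0.115 to 0.123 between same-numbered libraries, so the numbers were not taken as pairs. Depth was similar across libraries, and intervals for folds come from the fit.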

Additional observations from a re-analysis of the deposited data

Results flagged for a closer look

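The i-TERTci and ADR effects on Gli2 differed by 3.68 on the log2 scale, the result in which a test of the difference passed, with the limits given above.

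In groups of 4 control mice, the lowest or highest mouse of a named gene was sometimes far from the others, which chance gives in about 1 in 20 groups. Of 294 groups examined over 147 genes, 22 were of this kind. In the actin-rtTA+ controls these were control 1 for Fcgr3 (2.4 CPM), Notch1 (36.7), Robo4 (29.6) and Arhgap36 (0.022), control 2 for Boc (17.2) and Osmr (13.5), control 3 for Xirp2 (0.0235), Krt12 (0.0235) and Mmp27 (0.0469), and control 4 for Tyms (11.4), Krt20 (1.61), Fosl1 (0.446) and Cldn1 (24.0). In the saline mice they were mouse 1 for Krt12 (0.0682) and Ccl8 (0.432), mouse 2 for Plin2 (32.6) and Igha (14.4), mouse 3 for Nr4a3 (0.623), Eddm3b (4.36) and Alas2 (19.7), and mouse 4 for Il1f6 (0.0262) and Pecam1 (63.2). The values of Xirp2, Krt12, Arhgap36, Mmp27 and Il1f6 rest on 1 to 3 counts. Groups of 3 treated mice were not examined in this way.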

How the results depend on the processing

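No called value reported here changed sign under the alternatives run, whereas the counts of calls moved widely. The i-TERTci count of 1613 was 2659 with DESeq2, 7010 with voom, 1 with each experiment alone, 618 on all 20 libraries and 1 to 5013 without 1 library. The ADR count of 3664 was 9129 with voom, 1197 on all 20 libraries and 205 to 6184 without 1 library. The 1040 shared genes became 663 with no filter, 1720 with DESeq2, 4565 with voom, 1 with each experiment alone, 376 on all 20 libraries and 0 to 2597 without 1 library. The 189 shared genes with a narrow difference became 91 with library totals, 539 with DESeq2, 2475 with voom, 41 on all 20 libraries, 412 without the second ADR-treated knockout library and 0 to 1071 without 1 library. The single called difference became 63 with DESeq2, 1758 with voom, 0 on all 20 libraries (569 at an unadjusted p under 0.05) and 0 to 26 without 1 library. Of 42 lists, 36 had medians of 1 sign in both effects, and 34 to 38 did without 1 library. Rises were 89% of the i-TERTci calls, against 75.4% with DESeq2, 57.3% with voom, 56.2% without i-TERTci mouse 2 and 94.8% without i-TERTci mouse 3. The cause was not tested.

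With the replicate block, 5 i-TERTci genes, 1 ADR gene, 0 differences (917 at an unadjusted p under 0.05), 1 shared gene and 0 shared genes with a narrow difference were left. The replicate numbers did not pair the libraries (3 correlations of -0.115, 0.0851 and -0.0809 in the i-TERTci experiment and -0.00776, 0.0219 and 0.123 in the ADR experiment). Library totals moved the median log2 fold change of all genes to 0.19 and 0.17. The median SE of the difference was 0.32, with 3 treated mice per arm.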

Other observations

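Over all genes, 7.62% rose and 0.939% fell in i-TERTci kidneys, and 11.4% rose and 8.07% fell after ADR. Of 16 genes of parietal and progenitor cells, 4 rose in i-TERTci kidneys and 9 after ADR, among them Sox9, a transcription factor of repairing epithelium (3.16 and 3.97), Sox4 (1.44 and 1.78) and Cldn1, a claudin of the parietal epithelium (2.19 and 1.86). The i-TERTci count was 0 without control 1, control 2, control 3, control 4, i-TERTci mouse 1 or i-TERTci mouse 3, 8 without ADR mouse 1 and 9 without i-TERTci mouse 2, and the ADR count 1 without ADR mouse 2 and 4 without ADR mouse 3. Of 30 genes of RAS and ERK signalling, 9 rose in each experiment, 6 of them in both, such as the ERK phosphatase gene Dusp5 (2.02 and 1.84) and Spred3, an inhibitor of the pathway (1.27 and 2.14). These rises were 0 without control 1, control 3 or i-TERTci mouse 1 and 2 without i-TERTci mouse 3 in i-TERTci kidneys, and 2 without ADR mouse 2, 4 without ADR mouse 3 and 14 without ADR mouse 1 after ADR. Of 19 genes of fibroblasts, mesangium and pericytes, 7 rose in i-TERTci kidneys, and after ADR 6 rose and 2 fell. Rises of this list were 0 without control 1, control 3, i-TERTci mouse 1 or i-TERTci mouse 3, 1 without control 2 and 2 without control 4 in i-TERTci kidneys, and 1 without ADR mouse 2, ADR mouse 3, saline mouse 2, saline mouse 3 or saline mouse 4, 2 without saline mouse 1 and 3 without control 4 after ADR. Hmox1, heme oxygenase, rose in both (1.64 and 1.73), as did the hexokinase gene Hk2 (2.87 and 2.67) and the stress factor Atf3 (3.18 and 3.53), while the other antioxidant, glycolysis and unfolded protein response genes had no shared rise.

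Of 51 Wnt genes, 2 rose in i-TERTci kidneys, both of them also after ADR, where 5 rose and 5 fell, shares near or below those of all genes. The Wnt rises after ADR numbered 1 without ADR mouse 2 or ADR mouse 3, 3 without saline mouse 1, saline mouse 2, saline mouse 3 or saline mouse 4 and 9 without ADR mouse 1, and the falls 0 without ADR mouse 2, 1 without ADR mouse 3, saline mouse 3 or saline mouse 4, 2 without saline mouse 2, 3 without control 3 or i-TERTci mouse 3 and 10 without ADR mouse 1. The shared rises were Wnt10a, a ligand (2.12 and 2.38), and Nkd2, an inhibitor (1.09 and 1.72). Sfrp5, a secreted Wnt antagonist, and the ligand gene Wnt4 rose after ADR (1.99 and 0.87) against -1.02 and -0.07 in i-TERTci kidneys, and their differences did not pass (adjusted p = 0.546 and 0.572). Of 31 Notch genes, 2 rose in i-TERTci kidneys and 4 fell after ADR, beside 7.62% and 8.07% of all genes. Heyl, a Notch target, was at 1.18 and 0.43, and none of the 31 differences passed. Notch falls after ADR were 0 without ADR mouse 2, ADR mouse 3, saline mouse 3 or saline mouse 4, 1 without saline mouse 2 and 2 without i-TERTci mouse 3. Of 17 endothelial genes, 6 fell after ADR and none in i-TERTci kidneys, and 1 rose in both. Cdh5, VE-cadherin, was at 0.09 and -0.43 and Pecam1 at 0.05 and -0.33, and none of the 17 differences passed. Endothelial falls after ADR were 0 without ADR mouse 2 or ADR mouse 3, 1 without saline mouse 3 or saline mouse 4, 2 without saline mouse 2 and 11 without ADR mouse 1. Of 24 unfolded protein response genes, 2 rose in i-TERTci kidneys, and after ADR 2 rose and 4 fell, with medians of 0.12 and -0.15. Their falls after ADR were 0 with library totals or without ADR mouse 2, ADR mouse 3, saline mouse 3 or saline mouse 4, and 1 without saline mouse 2. A positive difference at an unadjusted p under 0.05 was found for 5 of the 24, against 3.78% of all genes. Examples were Hspa5, the chaperone BiP (0.64, adjusted p = 0.678), and Hyou1 (0.61, adjusted p = 0.554). Foxi1, the transcription factor of intercalated cells, fell after ADR (-0.50) against 0.17 in i-TERTci kidneys. Pdgfra and Pdgfrb, receptors of fibroblasts and pericytes, had differences of 0.78 and 0.56 that did not pass (adjusted p = 0.641 and 0.733). Of 48 genes of the mitochondrial respiratory chain, 3 fell after ADR, a lower share than over all genes, and none in i-TERTci kidneys. The list had medians of -0.50 in i-TERTci kidneys and -0.36 after ADR. The respiratory chain falls after ADR were 0 without ADR mouse 2 or ADR mouse 3, 1 without control 1, control 2, control 3, control 4, i-TERTci mouse 3, saline mouse 1, saline mouse 2, saline mouse 3 or saline mouse 4, 10 without i-TERTci mouse 1 and 23 without ADR mouse 1.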
